A study of Mus musculus with 9 samples.

Results

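The 9 genes described here are the enzymes that place methyl groups on lysine 4 of histone H3 (H3K4), their close relative Kmt2e, and a pair of the KDM5 enzymes that take the methyl groups off, namely Kmt2a, Kmt2b, Kmt2c, Kmt2d, Kmt2e, Setd1a, Setd1b, Kdm5a and Kdm5b. They were chosen by symbol, and all 9 were found among the 14444 genes measured. H3K4 methylation marks promoters and enhancers of active genes. KMT2A and KMT2B act at selected CG-rich promoters, KMT2C and KMT2D place a single methyl group at enhancers, and SETD1A and SETD1B supply most of the trimethylation at active promoters, each inside a complex built on WDR5, RBBP5, ASH2L and DPY30. KMT2E carries a SET domain with little or no methylase activity of its own and a PHD finger that reads the mark. KDM5A and KDM5B remove it. In humans, loss of a copy of KMT2A, KMT2C, KMT2D or SETD1A causes or predisposes to disorders of brain development or psychiatric illness.

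Total RNA of mouse prefrontal cortex at postnatal weeks 5 to 8 was sequenced in 3 groups of 3 libraries after ribosomal RNA was depleted. One group was wild type under saline, the second consisted of mice labelled with a SHANK3 genotype given saline, and the third of mice of that genotype given UNC0642, which inhibits the histone H3K9 methylases EHMT1 and EHMT2, at 1 mg per kg by intraperitoneal injection 1 time a day for 3 days. Shank3 encodes a scaffold of the excitatory postsynapse; the labels name neither the allele nor its zygosity, and there was no wild-type group given UNC0642. The labels do not say that libraries of a group came from separate mice, so p-values measure the spread between these libraries. The series title concerns EHMT1 and EHMT2 as targets in Shank3-deficient mice; the 9 genes belong to the opposing, H3K4 side of histone lysine methylation.

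Each result is given on 2 scales, because the deposited values, which the authors name CPM, had been adjusted so that every gene has the same mean log2 value in 2 sets of libraries. Wild type with UNC0642 replicates 2 and 3 form one set, and the saline mutants with UNC0642 replicate 1 form the other. The whole reads behind the values were recovered for all 14444 genes, 12035098 to 16165483 a library, and are given as RPM, reads per 1000000 of the library size that the authors' scaling implies. On the reads, the first principal component (51.7% of the variance) divided the libraries another way: the wild-type libraries and UNC0642 replicate 3 on one side (4 libraries), the saline mutants and UNC0642 replicates 1 and 2 on the other (5 libraries). No label names a batch. Genotype and this division coincide in every library but UNC0642 replicate 3, so what separates them in any result rests on that 1 library. Every listed marker of neurons, glia and endothelium had at least 71 reads in every library. Shank3 lay at 301 to 348 RPM in wild type, 324 to 350 in saline mutants and 294 to 316 with UNC0642, which checks the labels only if the unnamed allele removes counted sequence. The targets of UNC0642 lay at 32.3 to 38.0 RPM for Ehmt1 over all libraries, while Ehmt2 lay at 194 to 226 in wild type, 243 to 260 in saline mutants and 215 to 233 with UNC0642, the saline mutants above all other libraries.

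The promoters of 4 of the genes are shown first, because Kmt2a, Kmt2c and Kdm5b were the members called in the comparison of recovered reads described below and Setd1a was the member that went the other way. The sequences are from RefSeq on GRCm38.p6, 250 bases before to 50 after the annotated start, and 5 of the 9 genes matched (these 4 and Kmt2d). Capitals mark CG pairs. The Kmt2a window is chr9:44881240-44881539 on the minus strand, that of Kmt2c chr5:25498734-25499033 on the minus strand, that of Setd1a chr7:127777139-127777438 on the plus strand and that of Kdm5b chr1:134559928-134560227 on the plus strand.
Kmt2a: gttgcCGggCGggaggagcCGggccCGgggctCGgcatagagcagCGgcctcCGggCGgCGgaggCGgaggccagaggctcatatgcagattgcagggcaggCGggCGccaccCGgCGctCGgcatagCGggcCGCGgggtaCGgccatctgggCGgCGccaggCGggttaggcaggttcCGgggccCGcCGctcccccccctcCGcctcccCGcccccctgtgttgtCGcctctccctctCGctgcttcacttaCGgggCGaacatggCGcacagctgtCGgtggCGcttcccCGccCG
Kmt2c: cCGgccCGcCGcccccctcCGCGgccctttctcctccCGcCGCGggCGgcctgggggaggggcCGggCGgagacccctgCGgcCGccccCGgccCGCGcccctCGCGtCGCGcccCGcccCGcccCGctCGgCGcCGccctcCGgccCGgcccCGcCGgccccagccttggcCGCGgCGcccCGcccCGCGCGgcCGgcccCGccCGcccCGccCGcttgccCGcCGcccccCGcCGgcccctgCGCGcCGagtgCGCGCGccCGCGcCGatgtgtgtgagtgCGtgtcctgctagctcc
Setd1a: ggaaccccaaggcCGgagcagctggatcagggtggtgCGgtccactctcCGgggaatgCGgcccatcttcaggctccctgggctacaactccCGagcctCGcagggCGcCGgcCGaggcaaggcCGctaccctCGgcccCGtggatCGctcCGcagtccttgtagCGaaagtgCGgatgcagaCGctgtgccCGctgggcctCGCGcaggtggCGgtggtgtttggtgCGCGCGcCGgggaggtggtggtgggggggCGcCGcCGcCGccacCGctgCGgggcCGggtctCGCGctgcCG
Kdm5b: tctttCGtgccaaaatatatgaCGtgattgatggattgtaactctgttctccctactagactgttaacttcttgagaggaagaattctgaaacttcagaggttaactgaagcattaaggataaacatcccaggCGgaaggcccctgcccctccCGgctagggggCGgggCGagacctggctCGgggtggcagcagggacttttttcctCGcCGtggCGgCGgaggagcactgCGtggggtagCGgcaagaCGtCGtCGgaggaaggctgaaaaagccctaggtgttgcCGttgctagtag

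The Kmt2c window held 56 CG pairs, a number reached by 0.195% of 32851 RefSeq promoter windows of the same length, whose median was 7. Kmt2a held 36 (6.23% of windows have at least as many), Setd1a 35 (6.95%), Kmt2d 27 (15.5%) and Kdm5b 17 (31.4%). The ETS letters CCGGAAG (in 8.86% of all windows) and the E-box CACGTG (7.15%), which do not overlap each other, were searched on both strands. Neither was found in any of the 5 windows, which says nothing of the factors themselves. All 5 windows held more CG pairs than the median, Setd1a among them.

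All 9 genes are long. Their merged exons in GENCODE M21 run from 6.79 kb (Setd1a) to 20.3 kb (Kmt2c), against a median of 4.5 kb over the 13895 genes with a length, and 8 of the 9 exceed 8 kb. Levels were therefore compared between genes only per kb. In wild-type cortex the deposited value per kb of merged exons was highest for Kmt2a, at 12.9 ± 1.15 (SD, n = 3), followed by Kmt2e at 10.5 ± 0.521, Setd1a at 9.07 ± 0.646 and Kmt2d at 7.32 ± 1.24. Kmt2b lay at 6.7 ± 0.149 and Kmt2c at 5.41 ± 0.838 per kb. Kdm5b (3.94 ± 0.211), Setd1b (3.93 ± 0.764) and Kdm5a (3.81 ± 0.159) were lowest, so both demethylases sat at the bottom of the order with Setd1b. The ranges of neighbours overlapped for Setd1a and Kmt2d, Kmt2d and Kmt2b, Kdm5b and Setd1b, and Setd1b and Kdm5a; the other neighbours did not overlap. In RPM per kb the order was the same, but Kmt2b and Kmt2c overlapped (the lowest Kmt2b library had 6.61, the highest of Kmt2c 7.47) and Kmt2d and Kmt2b did not. The order depends on the length used: per kb of the longest transcript Kmt2e stood first at 15.0, above Kmt2a at 13.0, and Kdm5b moved from 3.94 to 7.48 and Kdm5a from 3.81 to 4.92.

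**Figure D1:**
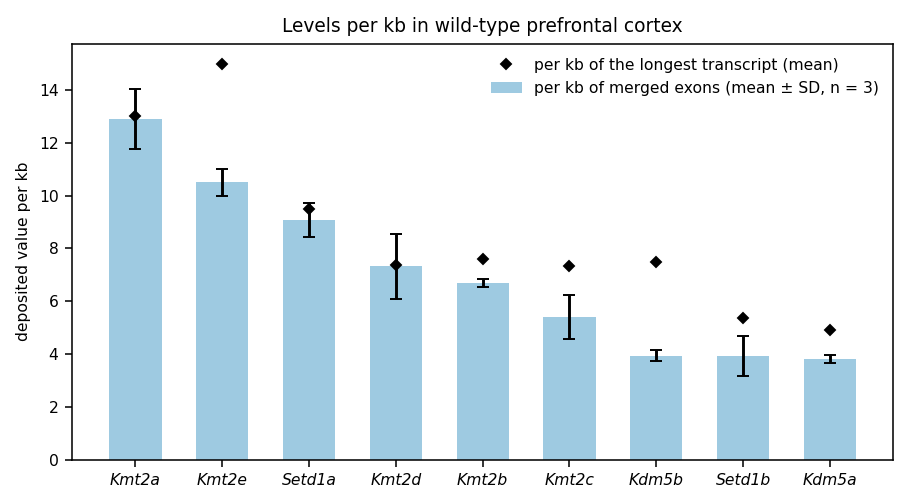
Deposited value per kb in the 3 wild-type libraries for each of the 9 genes; bars are means per kb of merged exons with the SD, and diamonds are means per kb of the longest transcript. Kmt2a leads at 12.9 per kb of merged exons, and Kmt2e moves from 10.5 to 15.0 when the longest transcript is used.

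The balance of the 6 methylases to the 2 demethylases, taken per kb of merged exons only, did not separate the groups. The log2 ratio of their mean deposited levels per kb, with Kmt2e left out, was 0.85, 0.88 and 1.15 in wild type, 0.94, 0.84 and 1.01 in saline mutants and 0.92, 0.92 and 0.87 with UNC0642. The groups overlap, and wild-type replicate 3 is the highest. On recovered reads per kb the ratios ran from 0.83 to 1.14, again with wild-type replicate 3 highest.

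Kmt2a, the first named gene of the family and a frequent translocation partner in human leukaemia, differed most. The 3 wild-type libraries held 239, 243 and 280 RPM of Kmt2a, the saline mutants 149, 165 and 159, and the UNC0642 libraries 157, 144 and 226. Wild type and saline mutant do not overlap; UNC0642 replicate 3 stands near wild type, and UNC0642 replicates 1 and 2 stand with the saline mutants. The deposited Kmt2a values were 202, 205 and 236 in wild type, 176, 196 and 189 in saline mutants and 186, 122 and 191 with UNC0642. On that scale the gap between wild type and saline mutants is narrow, and UNC0642 replicate 2 is the lowest library. Kmt2b, which acts with menin as Kmt2a does, was nearly level: 63.4, 66.2 and 65.6 RPM in wild type, 56.7, 60.9 and 65.9 in saline mutants and 63.3, 61.2 and 60.9 with UNC0642. The saline mutants overlap both other groups, and the UNC0642 libraries lie just under the wild-type ones.

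Kmt2c, the enhancer methylase with the longest merged exons, followed Kmt2a. It had 115, 119 and 152 RPM in wild type, 79.7, 87.6 and 76.9 in saline mutants and 82.4, 78.1 and 111 with UNC0642. Every mutant library is below every wild-type library, UNC0642 replicate 3 being closest to them. The deposited Kmt2c values were 98.3, 102 and 129 in wild type, 93.8, 103 and 90.5 in saline mutants and 97.0, 66.7 and 94.5 with UNC0642, where saline mutants and wild type overlap. Kmt2d, its partner paralogue, had 145, 140 and 189 RPM in wild type, 122, 126 and 123 in saline mutants and 125, 108 and 160 with UNC0642. Saline mutants and UNC0642 replicates 1 and 2 all lie below wild type, while UNC0642 replicate 3 is inside the wild-type range. The deposited Kmt2d values were 134, 130 and 174, then 132, 137 and 134, then 136, 99.5 and 148 in the same order of groups, with wild-type replicate 3 highest and UNC0642 replicate 2 lowest.

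Setd1a was the exception among the methylases. It had 56.5, 56.9 and 64.0 RPM in wild type, 60.9, 69.3 and 68.8 in saline mutants and 65.8, 66.7 and 63.1 with UNC0642. The mutant libraries tend to the higher values, with overlap. Setd1b, its paralogue, had 46.0, 45.2 and 63.0 in wild type, 35.9, 46.0 and 42.8 in saline mutants and 38.9, 40.6 and 49.7 with UNC0642; all groups overlap, and wild-type replicate 3 is the highest library. Kmt2e had 117, 109 and 120 in wild type, 96.9, 102 and 103 in saline mutants and 103, 92.1 and 123 with UNC0642, so that UNC0642 replicate 3 is the highest of all libraries.

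For both demethylases the RPM of saline mutants and wild type did not overlap. Kdm5b had 77.9, 70.5 and 71.9 RPM in wild type, 49.2, 61.1 and 51.7 in saline mutants and 53.7, 54.7 and 70.3 with UNC0642. Wild type lies above every mutant library, by a small margin over UNC0642 replicate 3. Kdm5a had 55.4, 60.0 and 56.7 in wild type, 47.0, 53.4 and 47.7 in saline mutants and 50.1, 48.9 and 62.4 with UNC0642, and its highest library is UNC0642 replicate 3. The deposited Kdm5b values were 69.2, 62.6 and 63.9 in wild type, 55.8, 69.2 and 58.6 in saline mutants and 60.9, 48.6 and 62.5 with UNC0642; those of Kdm5a were 46.0 to 58.6 over all 9 libraries. On the deposited scale saline mutants overlap wild type for both.

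**Figure D2:**
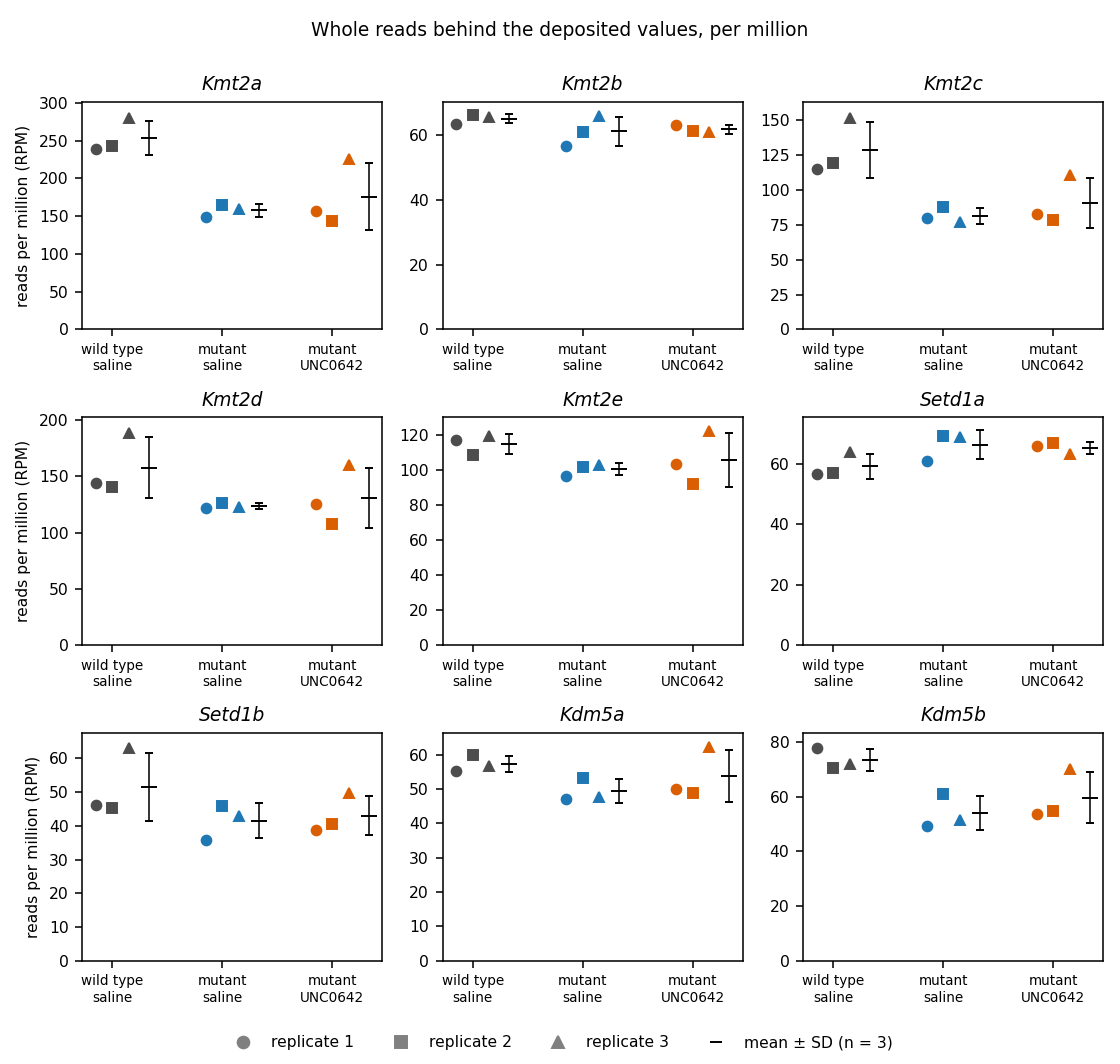
RPM recovered from the deposited values for the 9 genes, 1 point a library, with the group mean and SD beside the points; every vertical axis starts at 0. For 6 genes the wild-type libraries and UNC0642 replicate 3 all lie above the other 5 libraries.

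**Figure D3:**
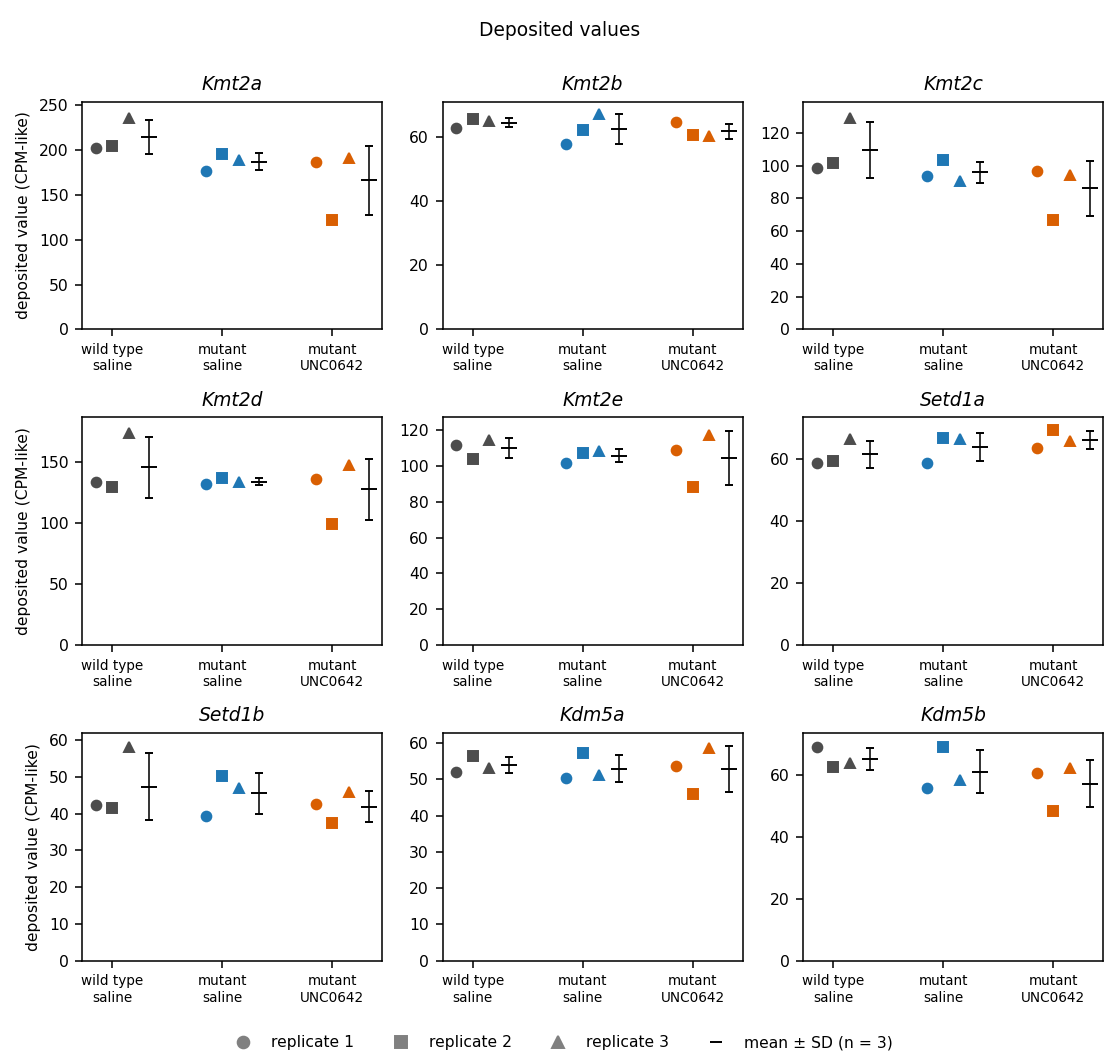
Deposited values of the 9 genes in the same layout, axes starting at 0. UNC0642 replicate 2 is the lowest library for Kmt2a (122), Kmt2c (66.7), Kmt2d (99.5), Kmt2e (88.0), Setd1b (37.5), Kdm5a (46.0) and Kdm5b (48.6). That library was adjusted in the set of wild type, and on the reads only Kmt2a, Kmt2d and Kmt2e are lowest in it.

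The RPM of 6 members (Kmt2a, Kmt2c, Kmt2d, Kmt2e, Kdm5a and Kdm5b) were higher in every wild-type library than in every saline mutant library, against 19.8% of all genes. The same 6 were higher in wild type and UNC0642 replicate 3 than in the other 5 libraries, against 13.6% of all genes. For 4 members (Kmt2a, Kmt2b, Kmt2c and Kdm5b) wild type lay above all UNC0642 libraries, against 8.71%. On the deposited values wild type lay above all saline mutants for 1 member, Kmt2a, against 1.7% of genes, and above all UNC0642 libraries for 3 (Kmt2a, Kmt2c and Kdm5b), against 5.84%. No member had its RPM in saline mutants (20.8% of all genes) or in UNC0642 libraries (8.7%) wholly above wild type, and none had the UNC0642 libraries wholly above (4.56%) or below (5.28%) the saline mutants.

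The first comparison sets saline mutants against wild type under saline, and genotype and the division coincide in all of its libraries. On the deposited values none of the 9 genes was called: limma, adjusted over all 14444 genes at an adjusted p of 0.05, called 0 members and 0 genes (0%), with 19 genes at an unadjusted p under 0.05. The member log2 differences ran from -0.19 for Kmt2a (SE 0.13) to 0.056 for Setd1a (SE 0.086), 8 of 9 negative, with a median of -0.056 against 0.0030 over all genes. The 95% intervals reached -0.48 to 0.091 for Kmt2a and -0.47 to 0.095 for Kmt2c (-0.19, SE 0.13). Because of the equal set means, the difference between these 2 groups in the deposited values is determined by the values of the UNC0642 libraries. On the recovered reads 3 of 9 members fell, while 6.71% of all genes were called lower and 12.4% were called in either direction. Kmt2a fell by 0.69 on the log2 scale (SE 0.13, adjusted p = 0.0174, limma-voom with Benjamini-Hochberg adjustment), Kmt2c fell by 0.65 (SE 0.13, adjusted p = 0.018) and Kdm5b fell by 0.44 (SE 0.12, adjusted p = 0.0307), each lower in 3 of 3 saline mutant libraries than in any wild-type library. Of the members not called, Kmt2d had -0.34 (SE 0.13, adjusted p = 0.103), Setd1b -0.29 (SE 0.14), Kdm5a -0.22 (SE 0.10), Kmt2e -0.19 (SE 0.099), Kmt2b -0.091 (SE 0.083) and Setd1a 0.17 (SE 0.088). The member median was -0.29 against 0.0033 over all genes. The calls depend on single libraries. No member was called without wild-type replicate 2, saline mutant replicate 1 or saline mutant replicate 3, when 14, 18 and 25 genes in all were called in place of 1794. Kmt2a alone was called without wild-type replicate 3 (403 genes), and Kmt2a and Kmt2c without wild-type replicate 1 (1758 genes). With saline mutant replicate 2 left out the same 3 members were called among 484 genes, and without UNC0642 replicate 3 Kmt2d joined them (3619 genes).

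The members that fell on the reads did not pass once the division of the libraries was a term in the fit. Kmt2a then had a log2 difference of -0.095 (SE 0.14), Kmt2c -0.18 (SE 0.17) and Kdm5b -0.068 (SE 0.15), while Kmt2d (0.13), Kmt2e (0.14), Setd1b (0.027) and Kdm5a (0.12) turned positive. The median of the 9 was 0.027, and limma-voom called 0 genes (0%), 709 having an unadjusted p under 0.05. The interval for Kmt2a, -0.39 to 0.20, is wide, and in this fit genotype is separated from the division by UNC0642 replicate 3 alone. The division was itself taken from these reads, so the loss of the calls cannot tell genotype from the division.

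Length and RNA composition moved with the same comparison. On the reads, the median difference of saline mutant less wild type (log2) was 0.26 for genes with under 1 kb of merged exons, 0.21 for 1 to 2 kb, 0.11 for 2 to 4 kb, -0.040 for 4 to 8 kb and -0.19 for the 2546 genes over 8 kb, of which 76.8% were negative. Taken relative to the median of their own length class, Kmt2a stood at -0.50 (139 of the 2546 genes over 8 kb were lower), Kmt2c at -0.46 (164 lower) and Kdm5b at -0.26 (423 lower). Kmt2d stood at -0.15, Setd1b at -0.11, Kdm5a at -0.031 and Kmt2e at -0.0066 relative to the class, Kmt2b at 0.095 and Setd1a at 0.21 relative to its class of 4 to 8 kb. The summed level of 8 ribosomal protein genes, which are short, was 1980 to 2120 RPM in wild type, 2620 to 2680 in saline mutants and 2220 in UNC0642 replicate 3, and 6 of the 8 were called higher in saline mutants. That of 7 nuclear-retained long RNAs was 6770 to 9690 in wild type, 5800 to 6440 in saline mutants and 7570 in UNC0642 replicate 3; 7 of 7 were negative and 4 called. The 5 oligodendrocyte markers were all negative, none called, with sums of 2680 to 4370 in wild type and 1340 to 3130 in saline mutants; the 4 neuronal markers were all positive, 1 called, with sums of 3880 to 5610 and 4960 to 5740. Of the 5 astrocyte markers 4 were negative and none called (sums of 1070 to 1530 RPM in wild type and 1000 to 1080 in saline mutants), of the 5 microglial markers 5 and none (240 to 335 and 216 to 257), and of the 4 endothelial markers 4 and 1 (127 to 151 and 84.3 to 113). Among the other lists, 3 of the 4 inhibitory neuron markers were negative and 1 was called (563 to 598 and 484 to 515). Of the 4 excitatory ones 2 were negative and none called (1620 to 2200 and 2160 to 2250). All 4 oligodendrocyte precursor markers were negative and none called (137 to 197 and 118 to 149). The same held for the 4 striatal markers (109 to 136 and 89.2 to 107). None of the 5 meningeal fibroblast markers was negative and none was called (32.1 to 46.1 and 45.9 to 54.0). In UNC0642 replicates 1, 2 and 3 the sums were 892, 997 and 1410 RPM for astrocytes and 219, 216 and 308 for microglia. In the same order they were 2280, 4380 and 3240 for oligodendrocytes and 105, 134 and 171 for their precursors. Neurons had 5600, 5510 and 4440, excitatory neurons 2280, 2170 and 1830, and inhibitory neurons 455, 474 and 596. Endothelium had 98.6, 102 and 110, meningeal fibroblasts 34.0, 56.8 and 76.6, and striatum 106, 115 and 98.5. The part of length, RNA composition or cell makeup in the members' differences was not tested. In bulk tissue, fewer cells of a type and less RNA per cell cannot be told apart.

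**Figure D4:**
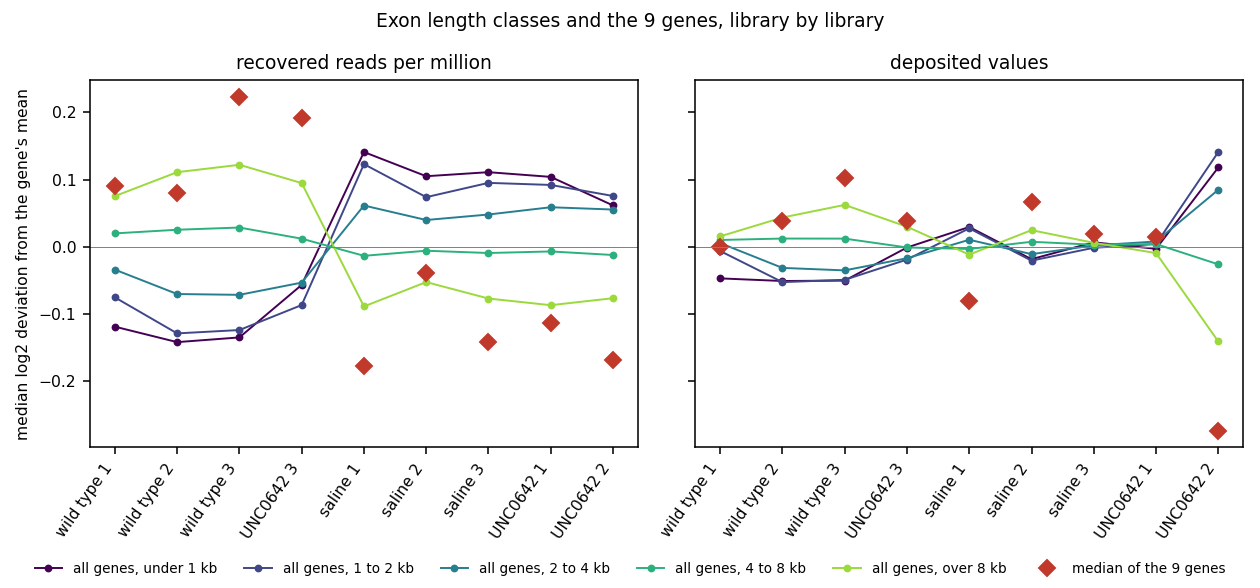
Median log2 deviation of each library from the gene's own mean over 9 libraries, for all genes in 5 classes of merged exon length (lines) and for the 9 members (diamonds), on recovered reads (left) and deposited values (right); the lines join libraries only to guide the eye. On the reads, genes over 8 kb deviate by 0.075 to 0.12 in wild type and UNC0642 replicate 3 and by -0.053 to -0.089 in the other 5 libraries; on the deposited values UNC0642 replicate 2 stands apart, at -0.14 for genes over 8 kb and -0.27 for the members.

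The second comparison sets mutants given UNC0642 against mutants given saline. None of the 9 genes was called on any scale. On the deposited values limma called 0 genes (0%), 281 having an unadjusted p under 0.05. Of the 9 members 8 were negative, from -0.20 for Kmt2a (SE 0.13) and -0.17 for Kmt2c (SE 0.13) to -0.0091 for Kdm5a (SE 0.097), and Setd1a had 0.050 (SE 0.086); the median was -0.091 against 0.0028 over all genes. The direction rests on UNC0642 replicate 2: without it 1 of 9 members was negative and the median was 0.015. That library was adjusted in the set of wild type and the saline mutants in the other, so the equal set means alter this difference too. On the reads Kmt2c, Setd1b, Kdm5a and Kdm5b of UNC0642 replicate 2 lay within the saline mutant range, while Kmt2a, Kmt2d and Kmt2e were lowest in it. On the recovered reads limma-voom also called 0 genes (0%), 539 at an unadjusted p under 0.05, and 8 of 9 members were positive, with a median of 0.064. Kmt2c (0.14, SE 0.13), Kdm5b (0.14, SE 0.12), Kmt2a (0.13, SE 0.13) and Kdm5a (0.12, SE 0.10) were the most positive. Among the 5 mutant libraries on the same side of the division, UNC0642 replicates 1 and 2 against the 3 saline mutants, the median was -0.023, limma-voom called 0 genes (0%) with 860 at an unadjusted p under 0.05, and the members lay between -0.098 for Kmt2d (SE 0.072) and 0.023 for Kmt2b (SE 0.082). Kmt2a had -0.072 (SE 0.066) there, with an interval of -0.21 to 0.071, and Kmt2c -0.023, with an interval of -0.19 to 0.14. No 95% interval of a member in that fit passed -0.29 on the low side or 0.21 on the high side. The 5 libraries were picked by the first principal component of these same reads, which can narrow both the differences and the spread. These intervals therefore set no bound on the effect of UNC0642.

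The third comparison sets UNC0642-treated mutants against wild type, and shares its libraries with the other 2. On the deposited values limma called 0 members and 0 genes (0%), though 1238 genes had an unadjusted p under 0.05. Kmt2a, at -0.39 (SE 0.13), had an unadjusted limma p of 0.0104 and an adjusted p of 0.576, and Kmt2c, at -0.36 (SE 0.13), an unadjusted p of 0.0161 and the same adjusted p. The equal set means bind this comparison too, as wild type and UNC0642 replicates 2 and 3 were adjusted together. These p-values therefore do not measure the difference between the groups as sequenced. Kmt2d (-0.20, SE 0.13), Kdm5b (-0.19, SE 0.11) and Setd1b (-0.16, SE 0.13) followed, and Setd1a had 0.11 (SE 0.086). The median was -0.16 against 0.0037 over all genes, and -0.046 without UNC0642 replicate 2. Genes over 8 kb had a median of -0.077 on this scale. On the recovered reads limma-voom called 11 genes (0.0762%) and no member; Kmt2a had -0.56 (SE 0.13, adjusted p = 0.124), Kmt2c -0.51 (SE 0.13, adjusted p = 0.124) and Kdm5b -0.31 (SE 0.11, adjusted p = 0.194). Without UNC0642 replicate 3, 2958 of 14444 genes were called in either direction, 1523 of them lower. Among the members 5 (Kmt2a, Kmt2c, Kmt2d, Kmt2e and Kdm5b) were then called lower, with Kmt2a at -0.75 and Kmt2c at -0.67. Without that library genotype and the division coincide in every library and cannot be told apart. With the division as a term limma-voom called 5 genes (0.0346%) and no member, and Kmt2a had -0.16 (SE 0.11) and Kmt2c -0.21 (SE 0.13).

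**Figure D5:**
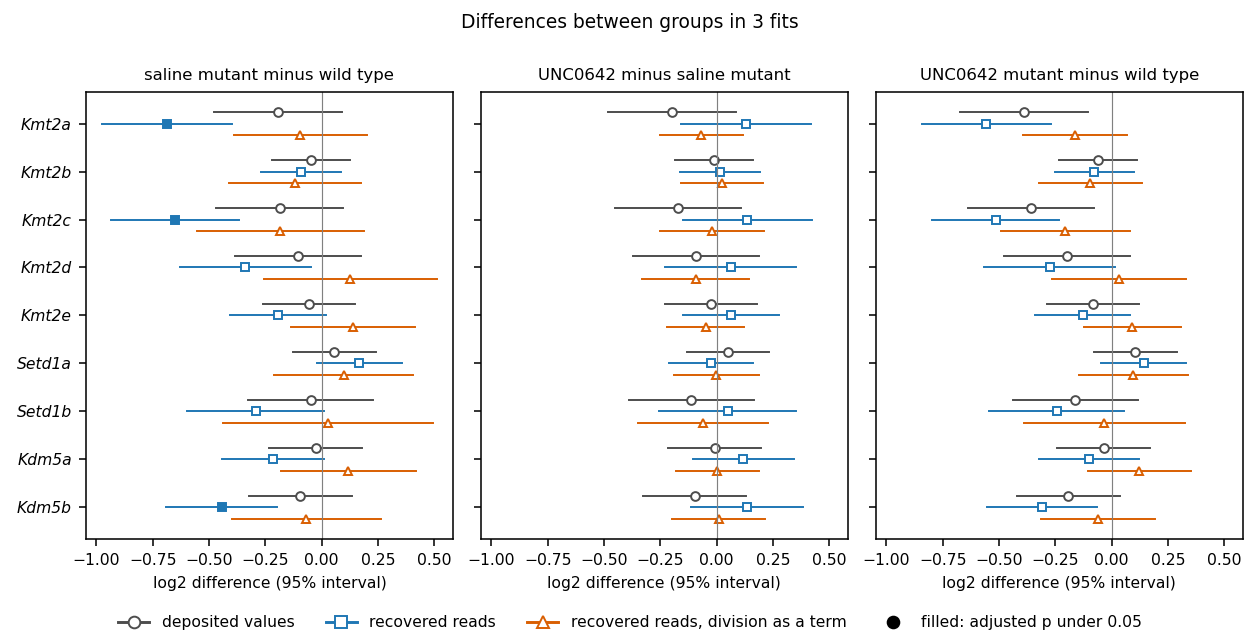
Log2 difference of each of the 9 genes in the 3 comparisons, with 95% intervals, from limma on the deposited values (circles), limma-voom on recovered reads (squares) and the same with the division of the libraries as a term (triangles); filled symbols have an adjusted p under 0.05. The filled symbols are Kmt2a, Kmt2c and Kdm5b in saline mutant minus wild type on recovered reads, at -0.69, -0.65 and -0.44.

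The partners of these enzymes were read from 7 lists of 47 genes, of which 45 were measured. The lists held core complex subunits, subunits particular to the SETD1, KMT2A/B and KMT2C/D complexes, and readers of the mark. They also held genes listed as other H3K4 methylases, and as other H3K4 demethylases with the LSD1 complex. Activity on H3K4 was not measured for any of them. On the deposited values limma called none of the 45 in any comparison. In saline mutant minus wild type the median was -0.027 with 28 of 45 negative, in UNC0642 minus saline mutant -0.028 with 27 negative, and in UNC0642 mutant minus wild type -0.053 with 29 negative. On the recovered reads limma-voom called 8 of 45 in saline mutant minus wild type, 4 higher (5.71% of all genes were) and 4 lower (6.71% of all genes were). The other comparisons, and all comparisons with the division as a term, had none. The 8 calls come from the comparison whose count of genes fell from 1794 to 14, 18 or 25 when certain single libraries were left out.

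Of the 4 core subunits 1 rose and 3 were not called in saline mutant minus wild type on the reads. In that fit 12.4% of all genes were called in either direction. Dpy30, the small dimer subunit, rose by 0.55 (SE 0.16, adjusted p = 0.042, limma-voom), from 12.2 ± 0.731 RPM in wild type (SD, n = 3) to 17.9 ± 2.39 in saline mutants. Wdr5, the scaffold, had 0.20 (SE 0.10) and Ash2l -0.20 (SE 0.10). Of the 6 subunits of the SETD1 complexes, the paralogues Bod1 and Bod1l were called in opposite directions. The short Bod1 rose by 0.36 (SE 0.10, adjusted p = 0.0351, limma-voom), from 63.4 ± 4.09 to 81.2 ± 0.228 RPM. The longer Bod1l fell by 0.42 (SE 0.11, adjusted p = 0.0335, limma-voom), from 97.6 ± 5.12 to 73.1 ± 2.97, and stood at 93.0 in UNC0642 replicate 3. Hcfc2 had -0.34 (SE 0.13), not called. None of the 3 KMT2A/B subunits (Men1 0.22, SE 0.097) and none of the 4 KMT2C/D subunits (Paxip1 0.20, SE 0.087, Pagr1a -0.20, SE 0.095, and Ncoa6 -0.17, SE 0.079) was called.

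Of the 6 genes listed as other H3K4 methylases 2 rose, 1 fell and 3 were not called on the reads. The share of all genes called was 12.4%. Smyd3 rose by 0.60 (SE 0.14, adjusted p = 0.0209, limma-voom), Smyd2 rose by 0.42 (SE 0.097, adjusted p = 0.0214), and Setd7, which adds a single methyl group to H3K4 and to other proteins, fell by 0.38 (SE 0.082, adjusted p = 0.0193). Setd7 went from 275 ± 13.9 RPM in wild type to 212 ± 8.18 in saline mutants, and lay at 251 in UNC0642 replicate 3. Of the 8 measured other demethylases and LSD1 complex genes, Kdm5c, the X-linked KDM5 enzyme, fell by 0.35 (SE 0.089, adjusted p = 0.0285, limma-voom), from 90.2 ± 3.35 to 70.7 ± 4.46. Kdm5d, its Y-linked homologue, had -0.27 (SE 0.11), and Phf21a, a subunit of the LSD1 complex that binds unmethylated H3K4, -0.27 (SE 0.12), neither called. Of the 14 measured readers, Bptf, the PHD-finger subunit of the NURF remodeller, fell by 0.38 (SE 0.11, adjusted p = 0.0392, limma-voom), from 128 ± 5.24 to 98.5 ± 3.83, and lay at 127 in UNC0642 replicate 3. Phf8 had -0.31 (SE 0.13) and Ing5 0.28 (SE 0.13), neither called.

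The genes whose deposited profile was most like the mean profile of the 9 were Usp37 (root-mean-square log2 difference 0.024 over 9 libraries), Celf2 (0.026), Kdm2a (0.030), Ankib1 (0.032) and Birc6 (0.032), among 10300 genes with a mean value of at least 10. The members' own mean profile had a root mean square of 0.12 and ran from -0.28 in UNC0642 replicate 2 to 0.20 in wild-type replicate 3. All 5 are long as well, with merged exons of 11.1, 25.9, 14.4, 8.54 and 25.8 kb in that order.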

How the data were processed

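Prefrontal cortex RNA was depleted of ribosomal RNA and made into stranded libraries, according to the labels. cutadapt, TopHat2, HTSeq and mm9 are named in the submitters' processing notes; not given in the sources used here were the scaling, the versions and the strand setting. What the authors deposited is a signal that is never negative, 1 value a gene and library, which they name CPM; the 9 single-library files held the same values as the matrix. No value was 0, and the mean log2 value of a gene was the same in 2 sets of libraries to within 2.5e-09.

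To recover whole reads, the shift between those sets was sought for every gene at which all its values become whole reads above a prior (mean 3.00 reads). All 14444 genes had 1 solution, with 100% of values whole within 0.02 reads; the step was tested on simulated data. RPM is the recovered read count per 1000000 of the authors' scaled library size. Standard errors and intervals cover the spread between libraries.

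Differences were tested by limma 3.58.1 in R 4.3.3 on log2(value + 0.5), a scale that understates changes of low genes, with a trend on intensity, all 9 libraries and no term but group. Adjustment was by Benjamini-Hochberg over all genes, with calls at an adjusted p under 0.05. The recovered reads were fitted with limma-voom and TMM factors; no gene was removed. Both fits were tested on simulated counts without the equal set means of the deposited values, so that test does not cover the adjustment. Lengths came from GENCODE M21, matched by symbol (13895 genes), and promoters from RefSeq GRCm38.p6. Members, lists and alternatives were chosen with earlier results of these data known. Named genes were the members, at most 3 a list of smallest p (printed for saline mutant minus wild type on the reads, where calls were made), Shank3, Ehmt1, Ehmt2, and the 5 genes of most similar profile. Alternatives are given with their effect below; on the recovered reads, leaving out each library, fitting only the groups compared, the block, an adjusted p under 0.1 and the length medians were added after seeing the data. Python 3.11.15, numpy 2.4.6, pandas 2.3.3 and matplotlib 3.10.9 were also used.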

Additional observations from a re-analysis of the deposited data

How the results depend on the processing

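Pseudocounts of 0.1 and 3, the filter, median-of-ratios and upper-quartile factors, and an adjusted p under 0.1 changed no count, direction or side of the threshold of the members on the deposited values. With only the groups compared, 5 genes and no member were called in saline mutant minus wild type. Limma-voom on recovered reads in place of limma on the deposited values, which changes values and method together, moved that comparison to 1794 genes and 3 members, with a member median of -0.29; UNC0642 minus saline mutant to a median of 0.064; and UNC0642 mutant minus wild type to 11 genes. Genes over 8 kb moved to medians of -0.19 and 0.052 in the first and second comparison. With the division as a term UNC0642 mutant minus wild type had 5 genes called, a member median of -0.033 and -0.0060 for genes over 8 kb.

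Several members changed sign. In UNC0642 minus saline mutant, recovered reads gave Kmt2a 0.13, Kmt2b 0.015, Kmt2c 0.14, Kmt2d 0.063, Kmt2e 0.064, Setd1a -0.024, Setd1b 0.049, Kdm5a 0.12 and Kdm5b 0.14; with the division as a term Kmt2b had 0.024, Setd1a -0.0011, Kdm5a 0.0029 and Kdm5b 0.0082, and within 1 side of the division 0.023, -0.0016, 0.0022 and 0.0075. With the division as a term, saline mutant minus wild type gave Kmt2d 0.13, Kmt2e 0.14, Setd1b 0.027 and Kdm5a 0.12, and UNC0642 mutant minus wild type Kmt2d 0.032, Kmt2e 0.091 and Kdm5a 0.12. Between the scales, the equal set means lowered Kmt2a in UNC0642 replicate 2 from 144 RPM to a deposited 122. In saline mutant replicate 1 they raised it from 149 RPM to 176. The share of this adjustment, of the method and of the division in each change of sign was not tested.

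Leaving out 1 library at a time on the deposited values gave 0 to 4 genes called in UNC0642 mutant minus wild type and 0 genes called in the other comparisons. Member medians ranged from -0.12 to -0.028, from -0.16 to 0.015 and from -0.23 to -0.046 in the 3 comparisons. In saline mutant minus wild type Kmt2b ranged from -0.10 to 0.0036, Kmt2d from -0.18 to 0.029, Setd1b from -0.13 to 0.10 and Kdm5a from -0.083 to 0.0066. In UNC0642 minus saline mutant Kmt2a ranged from -0.31 to 0.012, Kmt2b from -0.064 to 0.044, Kmt2c from -0.27 to 0.0015, Kmt2d from -0.21 to 0.079, Kmt2e from -0.11 to 0.092, Setd1a from -0.0098 to 0.082, Kdm5a from -0.088 to 0.086 and Kdm5b from -0.16 to 0.016. In UNC0642 mutant minus wild type Kmt2e ranged from -0.17 to 0.037 and Kdm5a from -0.11 to 0.059. On recovered reads the count ran from 14 to 3619 genes and 0 to 4 members in saline mutant minus wild type (medians -0.38 to -0.20), and from 1 to 2958 genes and 0 to 5 members in UNC0642 mutant minus wild type (medians -0.35 to -0.11). Adjusted p reached 0.0862 for Kmt2a and Kmt2c and 0.119 for Kdm5b in the former. In UNC0642 minus saline mutant the reads gave 0 genes throughout, a median of -0.022 to 0.19, Kmt2a from -0.069 to 0.26, Kmt2b from -0.036 to 0.069, Kmt2c from -0.022 to 0.24, Kmt2d from -0.094 to 0.20, Kmt2e from -0.048 to 0.16, Setd1a from -0.082 to 0.016 and Setd1b from -0.060 to 0.13.

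Added after seeing the data, an adjusted p under 0.1 on the reads called 3438 genes in saline mutant minus wild type and 23 in UNC0642 mutant minus wild type; only the groups compared gave 3162 and 2. On the deposited values, deviations from the group mean had correlations from -0.19 to 0.31 between same-numbered libraries. Other pairs of libraries ran from -0.26 to 0.27. With 3 libraries a group and set means made equal, these correlations cannot decide whether the numbers mark a pairing. The replicate block called 0 genes on the deposited values in each comparison, and on the reads 2441, 0 and 50 genes with 4, 0 and 1 members. Per kb of the longest transcript, over all 9 libraries, Kmt2b moved from 6.54 to 7.41, Kmt2c from 4.79 to 6.49, Kmt2e from 10.2 to 14.6, Setd1b from 3.72 to 5.08, Kdm5a from 3.76 to 4.86 and Kdm5b from 3.7 to 7.03. Each group has 3 libraries, and the depth of the members was 447 to 3576 reads a library, so the spread between libraries, and the division that nearly matches genotype, limit these comparisons.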
